A study of Mus musculus with 6 samples.

Results

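The genes described here are 10 that encode secreted ligands of the activin and bone morphogenetic protein (BMP) branches of the TGF-beta superfamily and the secreted proteins that bind them. They are the ligand genes Inhba, Bmp2, Bmp3, Bmp4 and Bmp6, the binder genes Fst, Fstl3, Grem1 and Chrdl1, and Fstl1, a relative of follistatin. They were taken by gene symbol from a table of 16671 genes, and all 10 were present in it. The cells were fibro-adipogenic progenitors (FAPs), a stromal population of muscle that can form fibroblasts and fat cells. They were isolated by FACS from the hindlimbs of wild-type mice aged 4 to 5 months, while the extraction protocol in the labels names MuSCs. In the C1q group, 3 libraries came from FAPs given C1q, the recognition protein of the classical complement pathway, at 100 µg/ml. In the control group, 3 libraries came from FAPs given vehicle. Each library was made by low-input RNA sequencing from 10 ng of total RNA, and the time of exposure is not given in the sources used here.

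Activins and BMPs are dimeric ligands that bring together type I and type II receptor kinases at the cell surface. Activins, dimers of inhibin beta chains, lead to phosphorylation of SMAD2 and SMAD3, and most BMPs to that of SMAD1, SMAD5 and SMAD9. The supply of ligand is limited outside the cell by binders: follistatin and follistatin-like 3 trap activins and myostatin, while gremlin and the chordin family trap BMPs. In skeletal muscle, follistatin is known as an antagonist of myostatin that permits muscle growth, and FAPs are known as a source of it.

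The library totals were 31929119, 24046020 and 29818424 reads in C1q replicates 1 to 3 and 38861152, 29325341 and 5379209 in control replicates 1 to 3, so control replicate 3 was the shallowest. Whether the replicates are different mice or different cultures is not stated, so the p-values here reflect the spread between libraries, which may be technical. The 8 FAP markers (Pdgfra, Ly6a, Cd34, Dcn, Col1a1, Lum, Pi16 and Dpt) were detected in every library, with 6 called higher with C1q, and summed to 327382 to 425611 normalised reads in C1q libraries and 193792 to 230932 in controls. Of 8 markers of muscle stem cells and myoblasts, Myf5, Myod1, Cdh15, Myog and Chrna1 were called lower with C1q. Their sum was 5313, 7173 and 6503 in C1q replicates 1 to 3 and 24736, 14172 and 7852 in control replicates 1 to 3, so every control library was above every C1q library, and Pax7, the defining stem cell marker, stood at 1.49 to 3.52 in C1q libraries and at 0 to 7.58 in controls. Of 8 muscle fibre markers 4 were called lower, and they summed to 17229 to 27664 in C1q libraries and 30251 to 105897 in controls. Of 7 tendon cell markers 4 (Tnmd, Fmod, Kera and Comp) were called higher, and 1 (Scx) lower, at 156 ± 37.9 with C1q and 358 ± 55.4 in controls. The 7 summed to 68610 to 134764 in C1q libraries and 16436 to 49602 in controls. Thbs4, Comp and Fmod made up most of these sums, with C1q means of 40449, 29061 and 21079. Of 7 pericyte and smooth muscle markers 3 were called higher, with sums of 5143 to 6801 in C1q libraries and 2680 to 3099 in controls. The sums were 655 to 1359 in C1q libraries and 731 to 1462 in controls for 8 endothelial markers, 207 to 607 in C1q libraries and 167 to 266 in controls for 6 leukocyte markers, and 281 to 330 in C1q libraries and 115 to 330 in controls for 6 Schwann cell markers. In RNA from a whole culture, fewer cells of a type and less RNA per cell cannot be told apart, and the part of these other cell types in the results below was not tested.

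Of the 10 genes, 4 rose with C1q: Chrdl1, Bmp3, Fst and Bmp4. Among the 10, 0 fell by the threshold used, a Benjamini-Hochberg adjusted p below 0.05 in limma-trend over all 16671 genes, at which 18.7% of all genes were lower. At an unadjusted p under 0.05, 1 gene (Grem1) was lower, and edgeR and DESeq2 each called it lower. The 10 genes were called at a rate of 40%, against 38.3% of all genes, which is close to the background, and the 4 higher genes compare with 19.7% of all genes called higher. The C1q libraries all lay above the control libraries at the same 4 genes, a pattern seen at 26.8% of all genes, and they lay below all controls at 0 of the 10, against 25.4% of all genes. The median log2 fold change was 0.56 over the 10 genes and 0.03 over all genes. Values per library are normalised read counts (reads divided by a size factor), and log2 fold changes were computed from the value + 1, which understates the change of low genes.

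**Figure D1:**
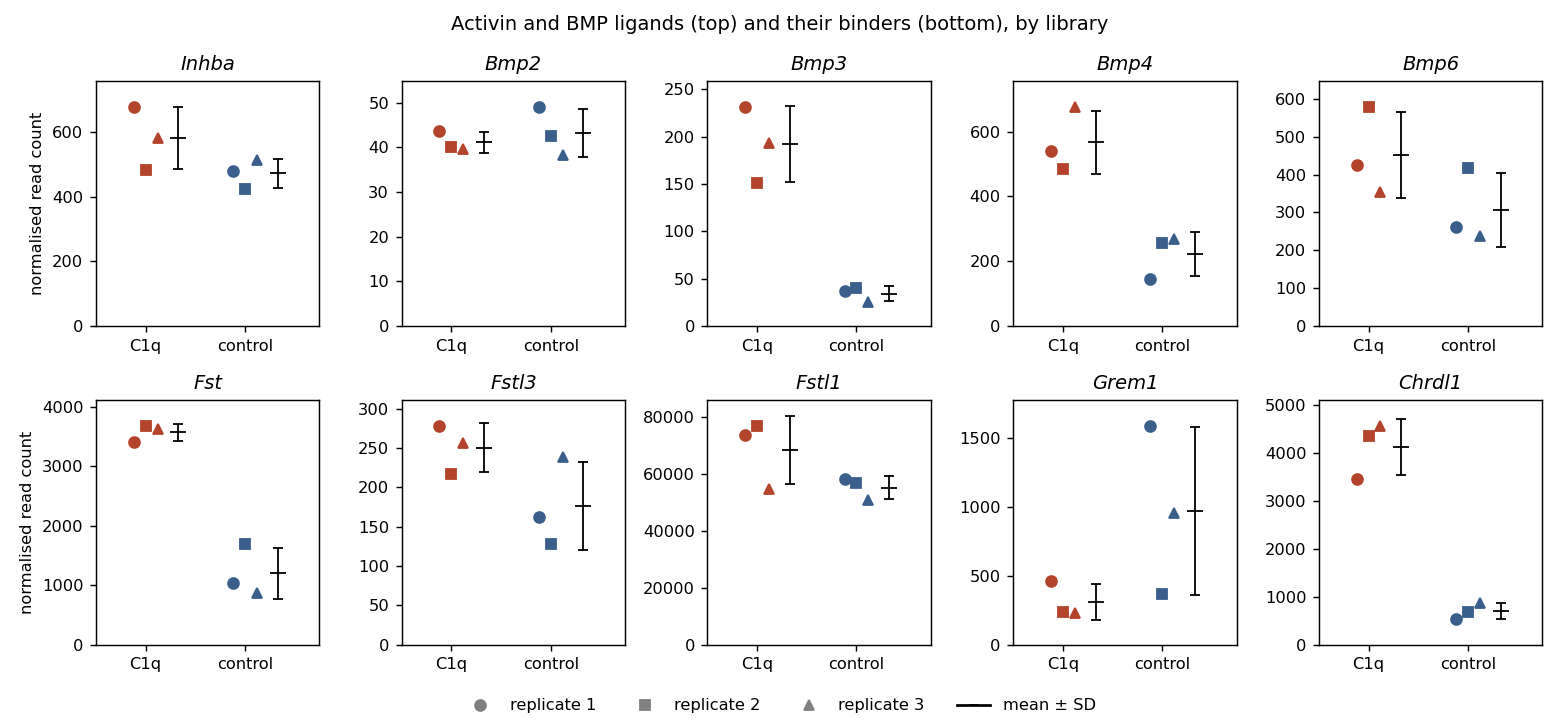
Normalised read count of each gene in the 3 C1q libraries (left in each panel) and the 3 control libraries (right), with symbols for the replicate number and the mean ± SD beside the points. The groups are apart at Bmp3, Bmp4, Fst and Chrdl1 and overlap at the other 6 genes, and the control points of Grem1 run from 368 to 1592.

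Fst, which encodes follistatin (Entrez gene 14313, chromosome 13, 114452262 to 114458989, all coordinates given in GRCm38), had normalised read counts of 3408, 3683 and 3623 in C1q replicates 1 to 3, against 1031, 1686 and 876 in control replicates 1 to 3. The C1q libraries lay close together, while the controls were spread more widely, and the lowest C1q library was above the highest control. The mean was 3571 ± 145 with C1q and 1198 ± 430 in controls (SD, n = 3 each), a 3.10-fold rise (log2 fold change 1.63 ± 0.22 SE, limma-trend adjusted p 0.00111). In percent of the mean, the SD was 4.05% with C1q and 35.9% in controls. The reads behind these values were 3779 to 4849 in C1q libraries and 206 to 2184 in controls, so counting error was small beside the spread of the controls. Leaving out 1 library gave a log2 fold change of 1.44 to 1.91, called each time. The genes whose log2 values ran most like those of Fst over the 6 libraries were Ppp1r13b, Clmn and the serine protease gene Htra3, with Pearson r of 0.9996, 0.999 and 0.998. This is a description only, since 461 of 12306 genes reached an r of at least 0.95 across the same libraries.

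Fstl3, whose product binds activin and myostatin as follistatin does (Entrez gene 83554, chromosome 10, 79777274 to 79782630), stood at 278, 217 and 256 in C1q replicates 1 to 3 and at 162, 128 and 238 in control replicates 1 to 3. Only control replicate 3, with 56 reads of the gene, reached into the range of the C1q libraries. The log2 fold change was 0.55, with a 95% interval of 0.02 to 1.07, and the gene was not called (limma-trend adjusted p 0.0942). Without control replicate 3 it was 0.79, with an adjusted p of 0.00738, and with replicate numbers as a block (the blocked fit) the adjusted p was 0.0390. Exons of Prss57 overlap Fstl3 on the opposite strand by up to 1157 bases, and Prss57 averaged 4.28 normalised reads with C1q and 1.42 in controls. Whether reads were counted by strand is not given, so the effect of this overlap on the Fstl3 values is not known. Shorter opposite-strand overlaps, of up to 115 bases at Fst and 89 bases at Bmp4, are also annotated.

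Fstl1 encodes a secreted glycoprotein that shares a follistatin domain but is not a classical activin trap (Entrez gene 14314, chromosome 16, 37777055 to 37836516). It stood at 73814, 76935 and 54712 in C1q replicates 1 to 3 and at 58132, 56728 and 50758 in control replicates 1 to 3. C1q replicate 3 lay below 2 of the controls, and the gene was not called (log2 fold change 0.30, 95% interval -0.09 to 0.68, limma-trend adjusted p 0.197).

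Inhba, which encodes the inhibin beta A chain that forms activin A (Entrez gene 16323, chromosome 13, 16004256 to 16031609), had 677, 484 and 583 normalised reads in C1q replicates 1 to 3 and 480, 424 and 514 in control replicates 1 to 3. C1q replicate 2 was below the highest control, so the groups overlapped. The log2 fold change was 0.29, with a 95% interval of -0.03 to 0.61 and a limma-trend adjusted p of 0.134, so a rise of up to 0.61 lies within the error. With the dependence of fold change on transcript length removed, the estimate was -0.08 (adjusted p 0.706). Of the other chains that pair into activins and inhibins, Inhbb stood at 2969 ± 833 with C1q and 3896 ± 1072 in controls and was not called, with a log2 fold change of -0.39.

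Levels of different genes were compared as normalised read count per kb of the longest annotated transcript, without knowledge of which transcripts these cells use. Fstl1 was the highest of the 10 genes in both groups, at 18075 ± 3175 per kb with C1q and 14570 ± 1033 in controls, above 99.6% of the 14929 genes with a known length. Fst came next, at 1223 ± 49.5 per kb with C1q and 410 ± 147 in controls. Chrdl1 followed in C1q libraries at 1008 ± 144 per kb, against 170 ± 41.6 in controls. In C1q libraries the next in order were Bmp4, Fstl3, Bmp6, Inhba, Grem1, Bmp3 and Bmp2, with overlapping ranges between Fstl3 and Bmp6, between Bmp6 and Inhba and between Inhba and Grem1. In controls the order after Fstl1 and Fst was Grem1, Chrdl1, Bmp4, Fstl3, Bmp6, Inhba, Bmp2 and Bmp3, where Grem1 overlapped both of its neighbours, as did Fstl3 and Bmp6. Grem1 thus had rank 8 of the 10 genes with C1q and rank 3 in controls, and Bmp3 was the lowest in controls, at 5.19 ± 1.17 per kb.

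**Figure D2:**
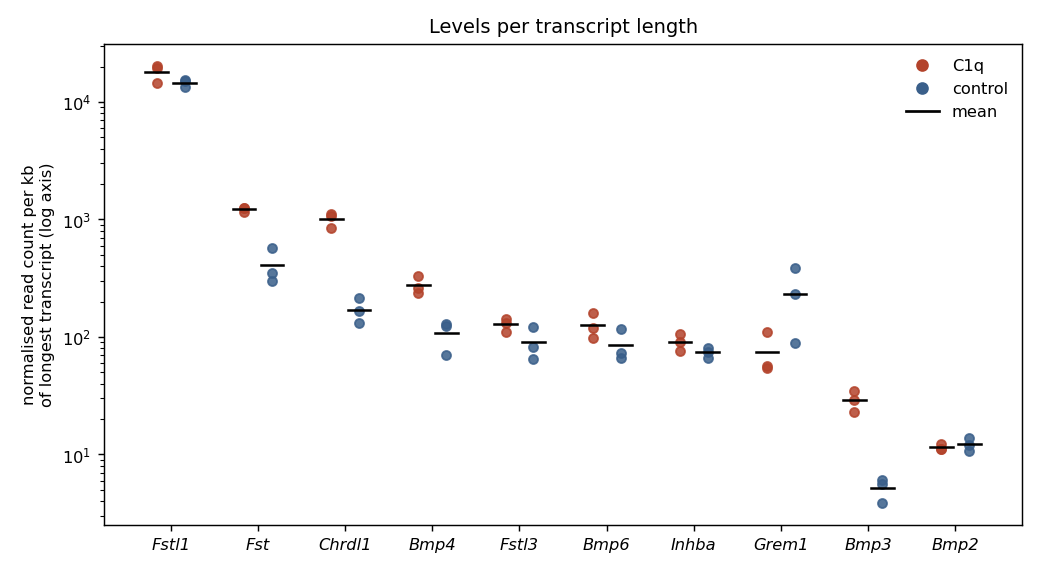
Normalised read count per kb of the longest transcript (log axis) for the 10 genes, ordered by their mean in C1q libraries. Points are libraries, with C1q left of control, and lines are means: Fstl1 lies above all others in both groups, and Grem1 lies lower in C1q libraries than its control mean of 234 per kb.

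Chrdl1, which encodes chordin-like 1, a secreted binder of BMPs including BMP4 (Entrez gene 83453, chromosome X, 143285674 to 143394263), had 3462, 4354 and 4573 normalised reads in C1q replicates 1 to 3, against 537, 676 and 876 in control replicates 1 to 3. Every C1q library was well above every control. The means were 4129 ± 589 with C1q and 696 ± 170 in controls, a 6.00-fold rise and the largest among the 10 genes (log2 fold change 2.58 ± 0.18 SE, limma-trend adjusted p 1.96e-04). Between libraries of the same number the ratio of C1q to control was 6.45, 6.44 and 5.22. Leaving out 1 library gave 2.41 to 2.76, called each time.

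Grem1 encodes gremlin 1, a cystine-knot binder that traps BMP2, BMP4 and BMP7 (Entrez gene 23892, chromosome 2, 113748675 to 113758648). It stood at 459, 236 and 228 normalised reads in C1q replicates 1 to 3 and at 1592, 368 and 956 in control replicates 1 to 3. The controls were far apart, and C1q replicate 1 was above control replicate 2. The means were 307 ± 131 with C1q and 972 ± 612 in controls, and the gene was not called (log2 fold change -1.50 ± 0.51 SE, 95% interval -2.70 to -0.30, limma-trend adjusted p 0.0532). It was lower with C1q in each pair of libraries of the same number, with ratios of 0.288, 0.640 and 0.238, and in the blocked fit it was called lower (adjusted p 0.00454). On the reads recovered from the table, edgeR with TMM scaling gave -1.67 (adjusted p 0.0320) and DESeq2 -1.66 (adjusted p 0.0282). Without control replicate 2 the estimate was -2.08 (adjusted p 0.00613), and without control replicate 1 it was -1.03 (adjusted p 0.133). Control replicate 1 had the highest Grem1 value and the highest summed muscle stem cell and muscle fibre markers. Control replicate 2 was second in those sums and lowest of the controls in Grem1. A link between Grem1 and these markers was not tested.

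Bmp4, which encodes a BMP that signals through SMAD1, SMAD5 and SMAD9 (Entrez gene 12159, chromosome 14, 46383525 to 46390669), had 540, 486 and 675 normalised reads in C1q replicates 1 to 3, against 146, 256 and 268 in control replicates 1 to 3. The groups did not overlap, and control replicate 1 was the lowest library. The means were 567 ± 97.5 with C1q and 223 ± 67.5 in controls, a 2.60-fold rise (log2 fold change 1.38 ± 0.24 SE, limma-trend adjusted p 0.00362), and the estimate was 1.10 without control replicate 1.

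Bmp3 encodes a BMP known as an antagonist of osteogenic BMP signalling rather than as an activator of SMAD1 and SMAD5 (Entrez gene 110075, chromosome 5, 98854415 to 98884053). It had 231, 151 and 193 normalised reads in C1q replicates 1 to 3, against 37.3, 40.2 and 25.5 in control replicates 1 to 3. All C1q libraries were above all controls, but the control values rest on 64, 52 and 6 reads. The means were 192 ± 40.0 with C1q and 34.3 ± 7.76 in controls, a 5.48-fold rise (log2 fold change 2.45 ± 0.24 SE, limma-trend adjusted p 4.07e-04). With a trend on transcript length removed the estimate was 2.07.

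Bmp6, whose product signals through the same SMADs and is known from the liver as a regulator of hepcidin (Entrez gene 12161, chromosome 13, 38345716 to 38500314), had 425, 578 and 355 normalised reads in C1q replicates 1 to 3 and 260, 418 and 238 in control replicates 1 to 3. Replicate 2 was the highest library in each group, so the groups overlapped although each C1q library was above the control of the same number. The gene was not called without the block (log2 fold change 0.58, 95% interval 0.0024 to 1.16, limma-trend adjusted p 0.104). It was called higher in the blocked fit (adjusted p 0.00414) and without control replicate 2 (0.83, adjusted p 0.0226). Exons of Txndc5, on the opposite strand, overlap the end of Bmp6 by up to 224 bases, and Txndc5 was abundant, at 15061 ± 1014 with C1q and 18828 ± 336 in controls. Whether reads were counted by strand is not given in the sources used here, so reads of the overlap cannot be assigned to either gene.

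Bmp2 (Entrez gene 12156, chromosome 2, 133552159 to 133562896), the close relative of Bmp4, had 43.7, 40.0 and 39.6 normalised reads in C1q replicates 1 to 3 and 48.9, 42.5 and 38.3 in control replicates 1 to 3. The values lay close together in all libraries, with 9 reads in control replicate 3. The log2 fold change was -0.07, with a 95% interval of -0.55 to 0.42 (limma-trend adjusted p 0.829). That interval does not hold the value of 1.38 measured for Bmp4, but the difference between the genes was not tested.

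**Figure D3:**
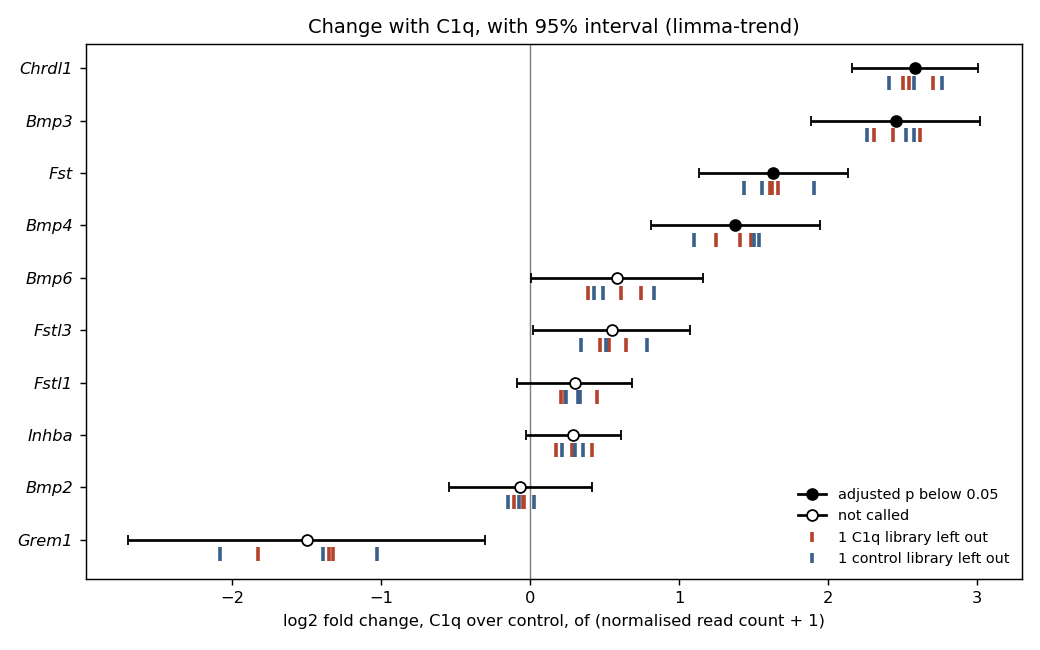
Log2 fold change of each gene, C1q over control, with its 95% interval from limma-trend, and below it the estimates with 1 library left out. Filled circles mark the 4 genes with an adjusted p below 0.05, from Bmp4 at 1.38 to Chrdl1 at 2.58, and the estimates for Grem1 spread from -2.08 to -1.03 as single libraries are left out.

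The amount of binder mRNA per ligand mRNA was described within each library as a ratio of levels per kb, with no test. Fst per Inhba was 11.0, 16.6 and 13.6 in C1q replicates 1 to 3 and 4.70, 8.70 and 3.72 in control replicates 1 to 3. Inhbb, left out of this ratio, averaged 2969 normalised reads with C1q and 3896 in controls, with a longest transcript of 4255 bases. Inhba averaged 581 with C1q and 473 in controls, with 6390 bases. The ratio is therefore no measure of Fst against all activin chain mRNA. Chrdl1 per sum of Bmp4 and Bmp6 was 2.23, 2.68 and 2.62 in C1q replicates 1 to 3 and 0.916, 0.687 and 1.09 in control replicates 1 to 3. Both ratios were higher in every C1q library than in every control. Grem1 per sum of Bmp2 and Bmp4 was 0.404, 0.230 and 0.162 in C1q replicates 1 to 3 and 4.55, 0.652 and 1.64 in control replicates 1 to 3. This ratio was lower in every C1q library than in every control, opposite to that of Chrdl1, which uses a different ligand sum. Grem1 alone overlapped between the groups and was not called, and Bmp4, which rose with C1q, is part of the denominator. These are ratios of mRNA and say nothing of secreted protein.

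**Figure D4:**
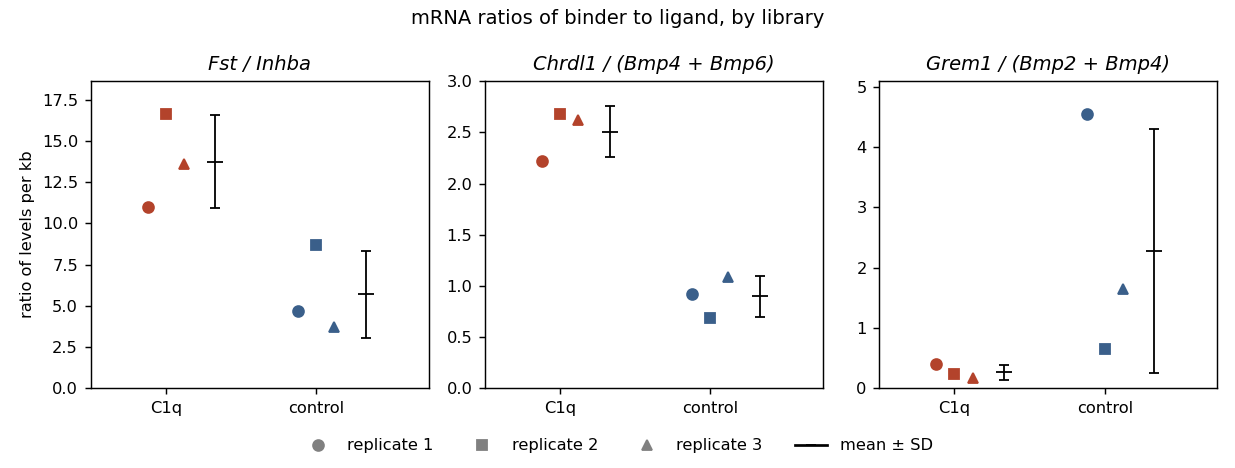
Ratio of binder to ligand mRNA per kb in each library, C1q left and control right, with the mean ± SD beside the points. Fst per Inhba and Chrdl1 per Bmp4 plus Bmp6 are higher in all 3 C1q libraries, and Grem1 per Bmp2 plus Bmp4 is lower in all 3, with controls spread from 0.652 to 4.55.

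The start regions of a BMP ligand gene that rose and of 2 binder genes that were not called are shown to set their sequence beside the values above. RefSeq sequences (GRCm38.p6) of the 250 bases before the start were matched for 6 of the 10 genes: Bmp4, Bmp6, Fstl1, Fstl3, Grem1 and Inhba. Capitals mark matches on either strand to the SMAD box CAGAC, the GC-rich SMAD site GGCGCC, the TCF/LEF core CTTTGA or the TATA box TATAAA, none of which overlapped another. The regions are chr14:46390670-46390919 (minus strand) for Bmp4, chr2:113758649-113758898 (minus strand) for Grem1 and chr10:79777024-79777273 (plus strand) for Fstl3.
Bmp4: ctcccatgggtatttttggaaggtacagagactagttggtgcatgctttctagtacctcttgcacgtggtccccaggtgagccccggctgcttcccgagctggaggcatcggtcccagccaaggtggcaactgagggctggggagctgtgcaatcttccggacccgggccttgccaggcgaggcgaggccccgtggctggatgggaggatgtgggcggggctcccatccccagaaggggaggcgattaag
Grem1: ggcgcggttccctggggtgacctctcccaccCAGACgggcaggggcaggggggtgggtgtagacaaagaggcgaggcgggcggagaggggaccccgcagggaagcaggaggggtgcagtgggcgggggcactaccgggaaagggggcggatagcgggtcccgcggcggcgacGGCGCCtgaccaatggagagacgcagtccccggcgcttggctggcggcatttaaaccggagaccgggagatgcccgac
Fstl3: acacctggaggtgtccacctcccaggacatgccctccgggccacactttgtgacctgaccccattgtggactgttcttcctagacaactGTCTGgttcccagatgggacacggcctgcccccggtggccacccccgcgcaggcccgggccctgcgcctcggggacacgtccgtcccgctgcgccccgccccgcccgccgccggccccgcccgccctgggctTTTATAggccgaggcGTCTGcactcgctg
Grem1 held 1 SMAD box and 1 GC-rich SMAD site, and Bmp4 held none of the 4 motifs. Fstl3 held 2 SMAD boxes and a match to TATAAA at -29 to -24 from the start. That match lies on the strand opposite to the gene and reads TTTATA as printed. Among 32851 such regions of the genome, 42.2% held a SMAD box, 9.59% a GC-rich SMAD site, 13.8% a TCF/LEF core and 12.4% a TATA box. Of the other 3 regions, Bmp6 held 1 SMAD box, Inhba held 1 TCF/LEF core and a TATA box, and Fstl1 held none of the motifs. The Inhba region (chr13:16011601-16011850, plus strand) lies inside the interval given above for that gene, so its start is not the first base of the interval. A match is a description of the letters and not a site of binding.

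Further genes of the activin and BMP pathways were taken from 7 lists, and 82 of their 98 genes were measured. Fstl3, described above, is also among the 82. Of these, 31 were higher and 4 lower with C1q, which is 42.7% called against 38.3% of all genes, with a median log2 fold change of 0.47 against 0.03. By direction, 19.7% of all genes were called higher and 18.7% lower. Removing the dependence of fold change on transcript length (the length trend) left 28 higher and 8 lower. That fit called 2119 higher and 2728 lower among all 14929 genes with a known length.

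Among 14 other secreted binders and modulators, 5 were higher and 0 lower with C1q (median log2 fold change 0.62). DESeq2 and edgeR called 0 of them lower as well, and 0 were lower at an unadjusted p under 0.05. Wfikkn2, which encodes a binder of myostatin and GDF11, had 450, 388 and 326 normalised reads in C1q replicates 1 to 3 and 160, 185 and 170 in control replicates 1 to 3, a log2 fold change of 1.16 (limma-trend adjusted p 7.39e-04). Chrd, which encodes chordin, averaged 372 ± 47.5 with C1q and 207 ± 5.26 in controls (0.84, limma-trend adjusted p 0.00132). Crim1, which encodes a membrane-anchored BMP binder, rose by 1.05 and Twsg1, the chordin partner twisted gastrulation, by 0.74 on the log2 scale. Kcp, a chordin-family gene, was the other gene of this list to rise. Nog, which encodes noggin, was at 25.0 ± 9.10 with C1q and 28.8 ± 14.5 in controls, and was not called.

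Of 15 other ligands measured, 2 were higher and 2 lower (median 0.52). Mstn, which encodes myostatin, had 4.23, 5.85 and 5.98 normalised reads in C1q replicates 1 to 3 and 26.2, 22.4 and 12.8 in control replicates 1 to 3, a log2 fold change of -1.71 (limma-trend adjusted p 0.0109). At 4.25 units per read, the value of control replicate 3 rests on few reads. The C1q values do so as well, at 0.705 to 0.975 units per read. The gene is known for its expression in muscle fibres. Its control values ran in the same order as the summed muscle fibre markers given above. Its C1q values did not, as those sums were 17229, 27664 and 23419 in C1q replicates 1 to 3. A link between Mstn and these markers was not tested. Inha, the inhibin alpha chain gene, was at 55.7 ± 1.28 with C1q and 85.8 ± 6.87 in controls (-0.61, limma-trend adjusted p 0.0217), but was not called with the length trend removed (-0.30, adjusted p 0.177). Gdf6 averaged 189 ± 16.8 with C1q and 114 ± 27.0 in controls, and Gdf7 29.3 ± 13.2 with C1q and 8.38 ± 4.09 in controls. In the blocked fit 5 of these ligands were higher, and the count of higher genes ran from 0 without C1q replicate 3 to 4 without control replicate 3. The calls of Inha and Gdf6 were lost without any 1 of the C1q libraries, and that of Gdf7 without C1q replicate 2 or 3 or control replicate 1 or 2. With reads thinned to the shallowest library, edgeR called 0 of these ligands higher and 0 lower. The call of Mstn was thus lost there, but it held as each single library was left out.

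Of 6 proteases, 2 were higher and 0 lower (median 0.43), and 0 were lower by edgeR, by DESeq2 or at an unadjusted p under 0.05. With the length trend removed, 2 were higher and 2 lower (median 0.09). Pcsk6, a proprotein convertase that matures ligands of this superfamily, averaged 3288 ± 389 with C1q and 954 ± 356 in controls (log2 fold change 1.85, limma-trend adjusted p 0.00149). Tll1, a tolloid protease that cuts chordin, averaged 80.9 ± 8.85 with C1q and 33.6 ± 10.5 in controls (1.28, limma-trend adjusted p 0.00657). Furin, another convertase gene, and Bmp1, which encodes a tolloid protease, were not called, with log2 fold changes of -0.05 and 0.00.

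Of 16 receptors and co-receptors, 8 were higher and 0 lower by limma-trend (median 0.42), and 6 were higher once the length trend was removed (median 0.32). The count of higher genes was 5 without any 1 of the C1q libraries or without control replicate 1. At an unadjusted p under 0.05 the co-receptor gene Hjv was also lower, at 273 ± 19.5 with C1q and 561 ± 303 in controls, and edgeR, DESeq2 and the blocked fit each called it lower. The type II receptor gene Bmpr2 had 1649, 1909 and 1789 normalised reads in C1q replicates 1 to 3 and 561, 374 and 523 in control replicates 1 to 3 (log2 fold change 1.89, limma-trend adjusted p 2.27e-04, and 1.22 with the length trend removed). Acvr2a, the activin type II receptor gene, averaged 4147 ± 474 with C1q and 1745 ± 275 in controls (1.25, and 0.95 with the length trend removed). Neo1, which encodes the repulsive guidance molecule receptor neogenin, rose by 1.07 and Acvrl1, the type I receptor gene ALK1, by 0.79 on the log2 scale.

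Of 14 SMAD genes and their regulators, 7 were higher and 1 lower (median 0.33), but with the length trend removed 6 were higher and 4 lower (median 0.03). Smad6, which encodes an inhibitory SMAD, averaged 1066 ± 61.2 with C1q and 653 ± 17.7 in controls (log2 fold change 0.71, limma-trend adjusted p 4.38e-04, and 0.73 with the length trend removed). Smad5, a transducer of BMP signals, averaged 2590 ± 36.1 with C1q and 1728 ± 40.2 in controls (0.58, and 0.20 with the length trend removed), and the corepressor gene Ski rose by 0.49 (0.21 with the trend removed). Tgif1, a corepressor gene that also counts among the targets of SMAD2 and SMAD3, was lower, at 592 ± 39.9 with C1q and 1070 ± 107 in controls (-0.85 with and without the trend).

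Of 14 targets of BMP signalling, 7 were higher and 0 lower (median log2 fold change 0.64), and 6 were higher with the length trend removed (median 0.66). Id2, which encodes an inhibitor of basic helix-loop-helix factors, had 738, 777 and 1027 normalised reads in C1q replicates 1 to 3 and 320, 427 and 476 in control replicates 1 to 3 (log2 fold change 1.06, limma-trend adjusted p 0.00294). Id1, a classical direct target, was at 217 ± 81.8 with C1q and 260 ± 53.5 in controls and was not called (-0.32, limma-trend adjusted p 0.448). Id3, Atoh8, Msx1, Smad6, Smad9 and Runx2 were the others that rose, but Runx2 was not called with the length trend removed (0.20, adjusted p 0.123). Msx2 was lower without being called, at 4.60 ± 1.11 with C1q and 15.9 ± 8.47 in controls, but it had an unadjusted p under 0.05 and was called lower by edgeR, while DESeq2 called 0 genes of the list lower. Smad6, Smad7, Smad9 and Bambi of this list also belong to the lists above.

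Of 10 targets of activin and SMAD2 or SMAD3, 2 were higher and 2 lower (median 0.26, and -0.01 with the length trend removed). Ltbp2, which encodes a latent TGF-beta binding protein, averaged 16663 ± 2407 with C1q and 5569 ± 1295 in controls (1.60, limma-trend adjusted p 6.76e-04). Ccn2, which encodes connective tissue growth factor, rose by 0.49 on the log2 scale, a call lost without C1q replicate 1 or 3. In the blocked fit, with DESeq2 and without control replicate 3, 4 genes of this list were higher. Tgif1 and Bhlhe40 were lower, at -0.85 and -0.65, and Pmepa1, Skil and Smad7 were not called. Fstl3 is itself in this list.

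**Figure D5:**
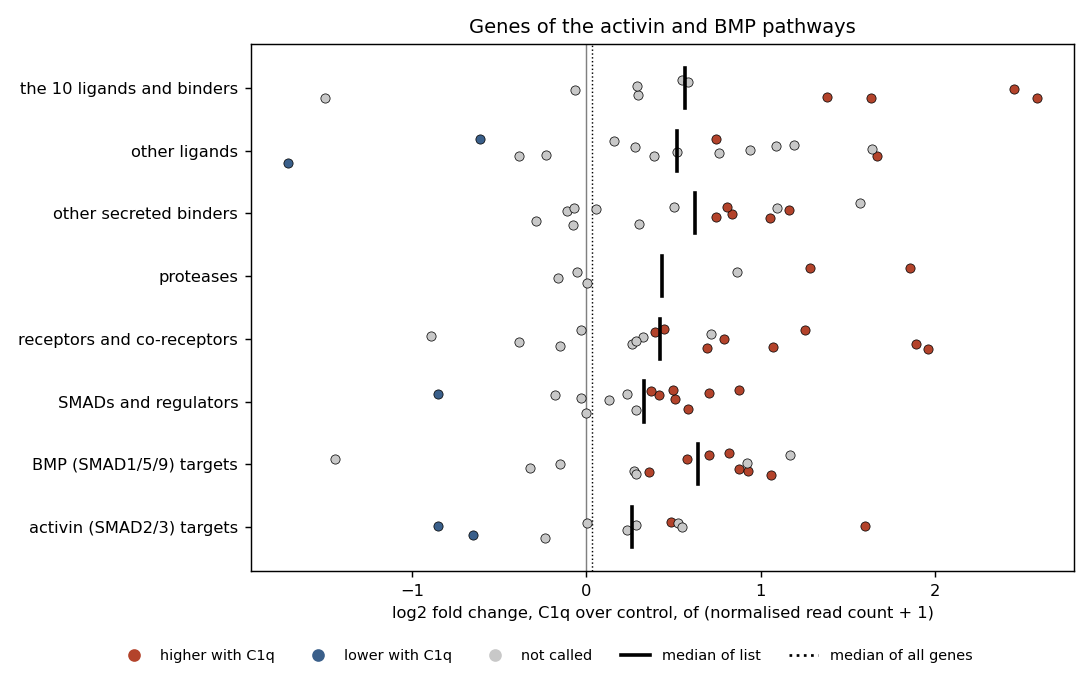
Log2 fold change, C1q over control, of every measured gene in the 10 described here and in the 7 lists of pathway genes, coloured by the call (adjusted p below 0.05), with the median of each list and of all genes (dotted line at 0.03). Fstl3 is shown both among the 10 and among the activin targets. The medians run from 0.26 in the activin targets to 0.64 in the BMP targets.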

How the data were processed

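The deposited table holds a normalised signal. Its columns are named as featureCounts counts, per the file headers, but the values deposited by the authors are reads per Entrez gene scaled by 1 factor for each library. The submitters' processing notes name Trimmomatic, HISAT2, featureCounts, DESeq2 and the mm10 build. Tool versions, gene annotation and strandedness are not given in those notes or the headers. Within 0.001 of a read, 100% of the values were whole multiples of 1 read, so reads were recovered (0.583 to 0.975 units per read, 4.25 in control replicate 3). No replicates agreed within sampling noise (chi-square per degree of freedom at least 17.6).

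Groups were compared with limma-trend (limma 3.58.1, R 4.3.3) on log2(value + 1) (minimum mean 1, which removed 0 of 16671 genes), with Benjamini-Hochberg adjustment over all of them. The test was checked on simulated data. The 10 genes, the lists and the rule for named genes (all 10, up to 4 called genes with the lowest p per pathway list, and 3 genes most like Fst) were chosen with earlier results of these data known. Genes named beyond this rule (Kcp, Nog, Inhbb, Furin, Bmp1, Hjv, Id1, Id3, Atoh8, Msx1, Msx2, Pmepa1, Skil, Smad7, Prss57, Txndc5 and marker genes) were chosen after their values were seen. Symbols came from RefSeq (GRCm38.p6; 16077 IDs matched, 594 did not) and lengths from GENCODE vM21 (14929 genes).

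Alternatives were edgeR 4.0.16, DESeq2 1.42.0 and limma-voom on recovered reads, other pseudocounts and filters, thinning to 5379209 reads, a replicate block, removal of a loess trend on transcript length (span 0.5), and leaving out each library. On recovered reads edgeR with TMM scaling called 6881 genes, against 6389 with limma-trend. Deviations of same-numbered libraries from their group means correlated at 0.123, 0.175 and 0.132, above the limit of 0.1 for treating numbers as pairs; the labels do not state a pairing.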

Additional observations from a re-analysis of the deposited data

How the results depend on the processing

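The calls of Fst, Bmp3, Bmp4 and Chrdl1 held under each of the 18 alternatives run, and Fstl1, Inhba and Bmp2 were called under none of them. The alternative with no filter on low values repeats the main test, since the filter removed 0 genes. Grem1 was called lower under 8 of the 18, Fstl3 higher under 6 and Bmp6 higher under 3. The count of members called lower, 0 in the main test, was therefore 1 with edgeR under both scalings, with DESeq2, with thinned reads, with the replicate block, and with the length trend removed with or without the block, and 0 to 1 as single libraries were left out. Over all genes, the fits just named that kept every library called 2557 (thinned reads) to 3513 (edgeR with TMM scaling) lower, of 14929 to 16671 tested. With the replicate block, 6 members were called higher and 1 lower, and no other member's call changed. That fit called 3548 of all 16671 genes higher and 3285 lower. The log2 fold change of Inhba turned to -0.076 with the length trend removed, with and without the block. That of Bmp2 turned to 0.031 with thinned reads and lay between -0.15 and 0.025 (without control replicate 1) as single libraries were left out. Over all genes, 2119 were called higher with the length trend removed, against 3277 without, and the cause was not tested. Of the pathway genes, 7 were called lower with edgeR and TMM scaling, and 8 and 9 with the length trend removed without and with the block, against 4 in the main test. Depth limits Bmp2 and Bmp3 most, with 9 and 6 reads in control replicate 3.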
